A study of Mus musculus with 24 samples.

Results

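The genes of MHC class I antigen presentation were followed through adrenal glands and neuroblastoma tumors of transgenic mice. The 10 members were chosen by gene symbol among the 21833 protein-coding genes of the deposited table and are H2-K1, H2-D1, B2m, Tap1, Tap2, Tapbp, Psmb8, Psmb9, Nlrc5 and Erap1. The table writes hyphens as dots, and the symbols were restored through the Ensembl identifiers.

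Class I molecules carry short peptides from inside the cell to its surface, where CD8+ T cells read them and NK cells sense their loss. The proteasome cuts proteins into peptides, and under interferon its standard catalytic subunits are exchanged for inducible ones. The TAP transporter moves the peptides into the endoplasmic reticulum, where they are trimmed and loaded onto a heavy chain paired with beta-2-microglobulin. In neuroblastoma, class I is known to be low at the cell surface.

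RNA-seq values of 24 libraries in 4 groups were used. The control group, AG, held glands from animals without CRE (n = 3). The AGM group held tumor-free glands from MYCN +/-, CRE + animals (n = 5). TI were neuroblastomas of CRE-positive IGF2BP1 mice (n = 8, of which 1 heterozygous and 7 homozygous), and TIM were neuroblastomas of CRE-positive mice with IGF2BP1 and MYCN (n = 8). According to the study, the transgenes lay in the Rosa26 locus behind a stop cassette, a Dbh-driven iCRE opened them in sympatho-adrenal cells, and the mice had been backcrossed to C57Bl6/N. It reports no wildtype Rosa26 locus in IGF2BP1/MYCN mice, so IGF2BP1 and MYCN lay on opposite alleles in TIM. Whole pieces of tissue were sequenced, so fewer cells of a type and less RNA per cell cannot be told apart in any value below. The labels place AG in sequencing run 1, AGM in run 2, TI mostly in run 1 (6 of 8) and TIM in runs 2 and 3. No run held both AG and either of AGM and TIM, and run and group cannot be told apart where these are compared. By the study's account, most IGF2BP1 tumors lay in the abdomen. Mice with IGF2BP1 and MYCN bore tumors at adrenal, abdominal and spinal sites, several in some animals. MYCN mice were culled later than the median survival of homozygous IGF2BP1 mice and of IGF2BP1/MYCN mice. Table columns name the group but not the sample, so site, age and animal cannot be tied to libraries. The library numbers used here are only names.

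Values are FPKM, a read count scaled to gene length and to a library depth as normalized by the authors. Without counting 126 genes above 1000 FPKM in some library, none of them a member, each library held 12334076 to 23683176 reads after the authors' batch correction. With these genes, totals were 17434796 to 17893013 reads in AG and 12468968 to 21353172 in TI. They were 116740738 to 1170004708 in AGM and 58530450 to 888626365 in TIM, so most corrected reads of AGM and TIM lay in these genes. The cause was not tested. Adrenal cortex markers summed to 645 to 667 FPKM in AG and 4293 to 5373 in AGM, and to at most 10.1 in TI and 9.28 in TIM. Marker genes of hepatocytes such as Alb, the serum albumin gene, stood out in AGM libraries 4 and 5, where 8 of them summed to 9956 and 13685 FPKM. Their sum was 53.9 to 381 in the other AGM libraries and 1.06 to 2.64 in AG. Adipocyte markers summed to 60.8 to 336 FPKM in AG and 284 to 1206 FPKM in AGM, but to at most 2.44 in TI and 51.0 in TIM. T cell markers were low in every group. Cd3e reached at most 0.242 FPKM and Cd8a at most 0.115, both in AG, whereas Cd4 was at 0.00935 to 0.0763 FPKM in AG, 0.0282 to 0.309 in TI and 0.104 to 0.655 in TIM.

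Of the 10 members, 7 lie in the MHC region of chromosome 17 within 1352 kb (34134873 to 35486475, GRCm39). Psmb9, Tap1, Psmb8 and Tap2 form a block of 34.9 kb there (34400960 to 34435829). B2m is on chromosome 2 (121977957 to 121983594), Erap1 on chromosome 13 (74787687 to 74841320) and Nlrc5 on chromosome 8 (95160984 to 95253900). H2-K1 (34214987 to 34219321) and H2-D1 (35481691 to 35486475) are paralogs. Of their 50-base transcript windows, 3.64% and 4.07% occur in both, and 10.5% and 9.72% occur in some other H2 gene, to which a part of their reads could have been assigned. Exons of Tap1 and Psmb9 overlap by 743 bases on opposite strands, those of Erap1 and Cast by 835 bases on opposite strands, and those of Tapbp and Zbtb22 by 923 bases on the same strand.

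Because the members moved together, the sequence before their start sites is shown for 5 of them, from RefSeq on GRCm38.p6, read 5′ to 3′ on the strand of the gene. The stretches are 250 bases before the start of H2-K1 (chr17:34000348-34000597, minus strand), H2-D1 (chr17:35262844-35263093, plus strand) and B2m (chr2:122147437-122147686, plus strand), and the 225 bases between the starts of Psmb9 and Tap1 (chr17:34187331-34187555, plus strand as for Tap1). Capitals mark the searched motifs on either strand: CCAAT (the NF-Y box), TGACG (a CRE core), GAAACT (an interferon response core), a pair of GAAA with 2 bases between them (a core of the interferon-stimulated response element, which can overlap GAAACT) and GGGA and TTCC with 2 bases between them (an NF-kB core).

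H2-K1: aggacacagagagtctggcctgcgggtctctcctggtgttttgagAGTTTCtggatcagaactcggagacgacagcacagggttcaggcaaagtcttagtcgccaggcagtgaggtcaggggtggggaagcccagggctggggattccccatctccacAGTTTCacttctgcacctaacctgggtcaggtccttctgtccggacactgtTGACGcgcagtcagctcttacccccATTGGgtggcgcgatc

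H2-D1: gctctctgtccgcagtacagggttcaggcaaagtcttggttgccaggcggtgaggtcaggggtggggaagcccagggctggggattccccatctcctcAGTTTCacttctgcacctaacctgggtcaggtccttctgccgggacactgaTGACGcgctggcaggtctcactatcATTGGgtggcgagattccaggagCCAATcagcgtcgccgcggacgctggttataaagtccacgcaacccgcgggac

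B2m: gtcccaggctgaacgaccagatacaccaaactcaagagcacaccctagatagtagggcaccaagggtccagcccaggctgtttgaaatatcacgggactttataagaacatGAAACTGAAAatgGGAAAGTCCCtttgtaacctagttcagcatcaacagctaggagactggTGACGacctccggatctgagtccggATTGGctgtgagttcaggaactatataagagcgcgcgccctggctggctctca

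Tap1 and Psmb9: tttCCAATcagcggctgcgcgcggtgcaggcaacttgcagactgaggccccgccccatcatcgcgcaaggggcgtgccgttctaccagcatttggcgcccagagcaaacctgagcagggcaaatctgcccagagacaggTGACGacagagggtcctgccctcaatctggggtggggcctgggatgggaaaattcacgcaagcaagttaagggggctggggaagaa

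In the stretches of H2-K1 and H2-D1, 166 of 190 aligned bases were identical (87.4%). Over windows of 300 bases, 8 members had an entry. CCAAT was in 6 of them and in 37.9% of 27025 promoters, TGACG in 5 and in 21.0%, GAAACT in 4 and in 16%, the GAAA pair in 2 (B2m and Erap1) and in 3.49%, and the NF-kB core in 1 (B2m) and in 1.43%. Tap1 and Psmb9 share a stretch, and those of H2-K1 and H2-D1 are much alike. The counts thus hold fewer separate promoters than members and are not read as an excess. A match is a description of these letters and not of a bound site. The stretches of H2-K1 and H2-D1 both hold ggggattcccc, which the searched NF-kB pattern does not match. A missing match is therefore not the absence of a site.

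Differences between groups were tested with limma on log2(FPKM + 1) over the 10171 genes that reached 1 FPKM in 3 or more libraries, and called at a false discovery rate (FDR) below 0.05. This filter left 9 members in the test and removed Nlrc5. Tap1, Psmb9 and Erap1 reached 1 FPKM in at most 1 tumor and passed the filter through the glands, where they are high. That filter favours lower values in tumors, so no limma test of tumors against glands is given for them. No value was at 0: the fewest reads behind a member in a library were 19, for Psmb9 in a TIM tumor.

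H2-K1, a classical class I heavy chain, was high in AGM and low in most tumors. Its values were 31.9, 27.2 and 26.3 FPKM in AG, and 113, 90.4, 114, 147 and 172 FPKM in AGM. In TI they ran from 1.65 over a median of 4.66 to 51.0 FPKM, and in TIM from 3.38 over 7.53 to 45.3 FPKM. AGM lay above AG without overlap, and in each tumor group 1 or more libraries reached the AG range. H2-K1 was lower in TI than in AG by a log2 fold change of -2.03 ± 0.70 (SE; limma FDR 0.0184), and in TIM by -1.44 ± 0.70, which did not pass (limma FDR 0.0905). The call in TI was lost without AG library 1 (limma FDR 0.0644) or AG library 2 (limma FDR 0.0512).

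H2-D1, the other classical heavy chain of these mice, kept more of its level in tumors. It measured 39.1, 33.0 and 34.5 FPKM in AG, and 97.2, 84.6, 87.1, 106 and 123 FPKM in AGM. The TI values ran from 8.73 over a median of 17.2 to 85.3 FPKM, and the TIM values from 14.5 over 21.0 to 105 FPKM. Both tumor groups overlapped with AG. The log2 fold change was -0.84 ± 0.54 (SE; limma FDR 0.205) in TI vs AG and -0.34 ± 0.54 (SE; limma FDR 0.633) in TIM vs AG, and neither passed.

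B2m encodes beta-2-microglobulin, the light chain that every class I heavy chain needs. Its levels were 127, 104 and 116 FPKM in AG, and 201, 213, 243, 250 and 289 FPKM in AGM. They were 7.38 to 69.9 FPKM in TI (median 18.4) and 14.2 to 123 FPKM in TIM (median 23.6). All TI tumors lay below all AG glands, and in TIM only library 5 reached the AG range. B2m fell in TI vs AG with a log2 fold change of -2.41 ± 0.54 (SE; limma FDR 0.000668), a mean of 25.4 ± 19.5 against 116 ± 11.4 FPKM (SD, n = 8 and 3). In TIM vs AG it fell with -1.90 ± 0.54 (SE; limma FDR 0.00513).

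**Figure D1:**
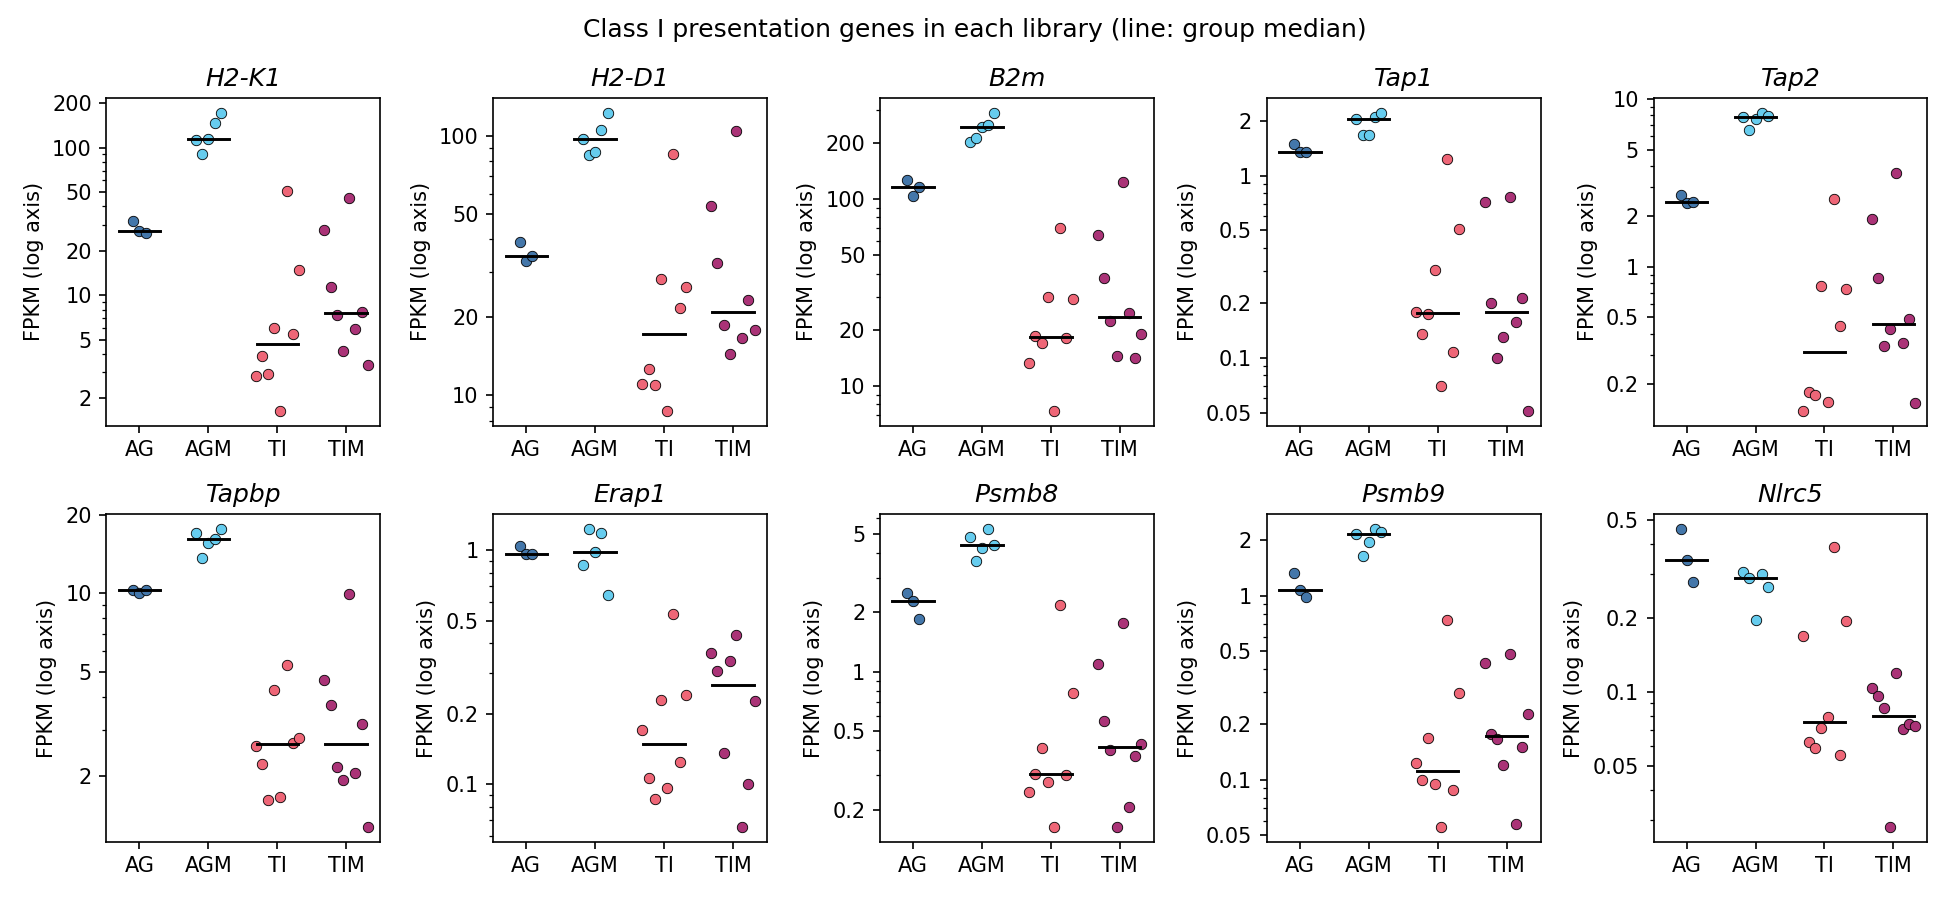
FPKM (log axis) of the 10 members in each library, by group, with the group median as a line. AGM glands are the highest group for H2-K1, H2-D1 and B2m, and TI and TIM tumors are spread over more than a 10-fold range of H2-K1, from 1.65 to 51.0 and from 3.38 to 45.3 FPKM.

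The ratio of H2-K1 to H2-D1 within a library does not depend on library scaling, but can still differ by run or batch correction. It was 0.818, 0.824 and 0.761 in AG, 1.07 to 1.4 in AGM (median 1.31), 0.189 to 0.597 in TI (median 0.262) and 0.188 to 0.514 in TIM (median 0.353). Both tumor groups lay below AG without overlap, and AGM lay above AG. On the log2 scale the ratio differed by -1.4 in TI vs AG and by -1.22 in TIM vs AG (exact two-sided permutation test, adjusted p = 0.0115 for each), and by 0.66 in AGM vs AG (exact permutation test, adjusted p = 0.0252). TIM and TI differed by 0.18 (exact permutation test, adjusted p = 0.523). These p-values were adjusted over 24 tests, 4 ratios by 6 comparisons, and the ratios were chosen after values were seen. The smallest unadjusted p that the design allows is 0.00606 for tumors against AG and 0.0179 for AGM against AG.

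Transport and loading genes came next. Tap1, a subunit of the peptide transporter, was at 1.5, 1.35 and 1.35 FPKM in AG, 1.67 to 2.21 in AGM glands, 0.0699 to 1.23 in TI (median 0.176) and 0.0512 to 0.768 in TIM (median 0.179). The highest tumor, TI library 6, stayed below the lowest AG gland. The log2 fold change of Tap1 against AG was -0.88 in TI and -0.92 in TIM (SE 0.18 in each).

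Tap2, the partner subunit, was at 2.70, 2.40 and 2.43 FPKM in AG and at 7.83, 6.52, 7.56, 8.27 and 7.88 FPKM in AGM. It ran from 0.139 to 2.53 FPKM in TI (median 0.312) and from 0.154 to 3.61 in TIM (median 0.457). The AGM glands stood clear of all other libraries, and 1 library of each tumor group reached the AG range. The log2 fold change against AG was -1.21 ± 0.34 in TI (SE; limma FDR 0.00464) and -0.96 ± 0.34 in TIM (SE; limma FDR 0.0212). The call in TIM was lost when any 1 AG library was left out (limma FDR 0.0558 to 0.0714).

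Tapbp encodes tapasin, which holds the empty heavy chain at the transporter. It was at 10.3, 10 and 10.3 FPKM in AG, 13.7 to 17.6 in AGM glands, 1.61 to 5.32 in TI (median 2.64) and 1.27 to 9.95 in TIM (median 2.65). Every tumor was below every gland. Against AG, its log2 fold change was -1.59 ± 0.33 in TI (SE; limma FDR 0.000279), and -1.46 ± 0.33 was found for TIM (SE; limma FDR 0.00069).

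Erap1, the aminopeptidase that trims peptides in the endoplasmic reticulum, had like levels in both gland groups. It was at 1.04, 0.966 and 0.960 FPKM in AG, 0.641 to 1.23 in AGM glands, 0.0864 to 0.532 in TI (median 0.148) and 0.0656 to 0.432 in TIM (median 0.265). All 16 tumors lay below all 8 glands. The log2 fold change against AG was -0.74 in TI, -0.68 in TIM and -0.01 ± 0.12 in AGM (SE; limma FDR 0.952).

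Psmb8 and Psmb9 encode inducible catalytic subunits of the proteasome. Psmb8 was at 2.51, 2.28 and 1.86 FPKM in AG, 3.62 to 5.27 in AGM glands, 0.164 to 2.19 in TI (median 0.302) and 0.164 to 1.76 in TIM (median 0.417). Only TI library 6 reached the AG range. Psmb8 fell by 1.1 on the log2 scale in TI vs AG (SE 0.25, limma FDR 0.000841). In TIM vs AG it fell by 1.04 (SE 0.25, limma FDR 0.00144).

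Psmb9 was at 1.33, 1.08 and 0.981 FPKM in AG, 1.64 to 2.30 in AGM glands, 0.0555 to 0.741 in TI (median 0.111) and 0.0577 to 0.480 in TIM (median 0.173). AGM lay above AG, and AG above all tumors, with no overlap. Its log2 fold change against AG was -0.83 ± 0.13 in TI and -0.80 ± 0.13 in TIM (SE).

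Nlrc5, the transactivator of class I genes, had the lowest mean level of the 10 in each group and was compared by exact permutation. It was at 0.458, 0.342 and 0.280 FPKM in AG, 0.195 to 0.306 in AGM glands, 0.0552 to 0.386 in TI (median 0.0753) and 0.0282 to 0.119 in TIM (median 0.0799). Like Erap1 and unlike the other 8 members, it did not lie above AG in all AGM glands, and the ranges overlapped. The mean was 0.226 FPKM lower in TI than in AG and 0.278 lower in TIM than in AG (exact two-sided permutation test, p = 0.0364 and 0.0182, adjusted over 6 comparisons). For AGM vs AG the exact test gave an adjusted p of 0.107.

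Counts of calls in tumors are given for the 6 members that reached 1 FPKM in 3 or more tumors, beside the 8549 tested genes that did so. Tap2 and Psmb8 only just did so, in TI library 6 and TIM libraries 1 and 5, while all 8 glands reached 1 FPKM. Within TI they had 1 tumor at that level, as had Tap1, so their calls there carry a like reserve. In TI vs AG, 5 of these 6 were lower (B2m, H2-K1, Tapbp, Tap2 and Psmb8), against 20.9% of the 8549 genes. In TIM vs AG, 4 of 6 were lower (B2m, Tapbp, Tap2 and Psmb8), against 22.3%. Over all 10171 tested genes, 52.4% were called in TI vs AG (27.7% lower and 24.6% higher) and 51% in TIM vs AG (28.5% lower and 22.5% higher). The median log2 fold change over all tested genes was -0.0021 in TI vs AG and -0.0049 in TIM vs AG. Of the 6 members, B2m and Tapbp lay below AG without overlap in TI, and Tapbp and Psmb8 did so in TIM. Over all tested genes, with those that passed the filter through glands, the shares were 27.3% in TI and 24.7% in TIM. Tap1, Psmb9 and Erap1 lay below AG in both tumor groups, and Nlrc5 in TIM. They are not counted, because the filter favours this for the former and left Nlrc5 out of the test. In the fit with no filter on levels, Nlrc5 was called lower (limma FDR 0.00131 in TI and 0.000155 in TIM).

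**Figure D2:**
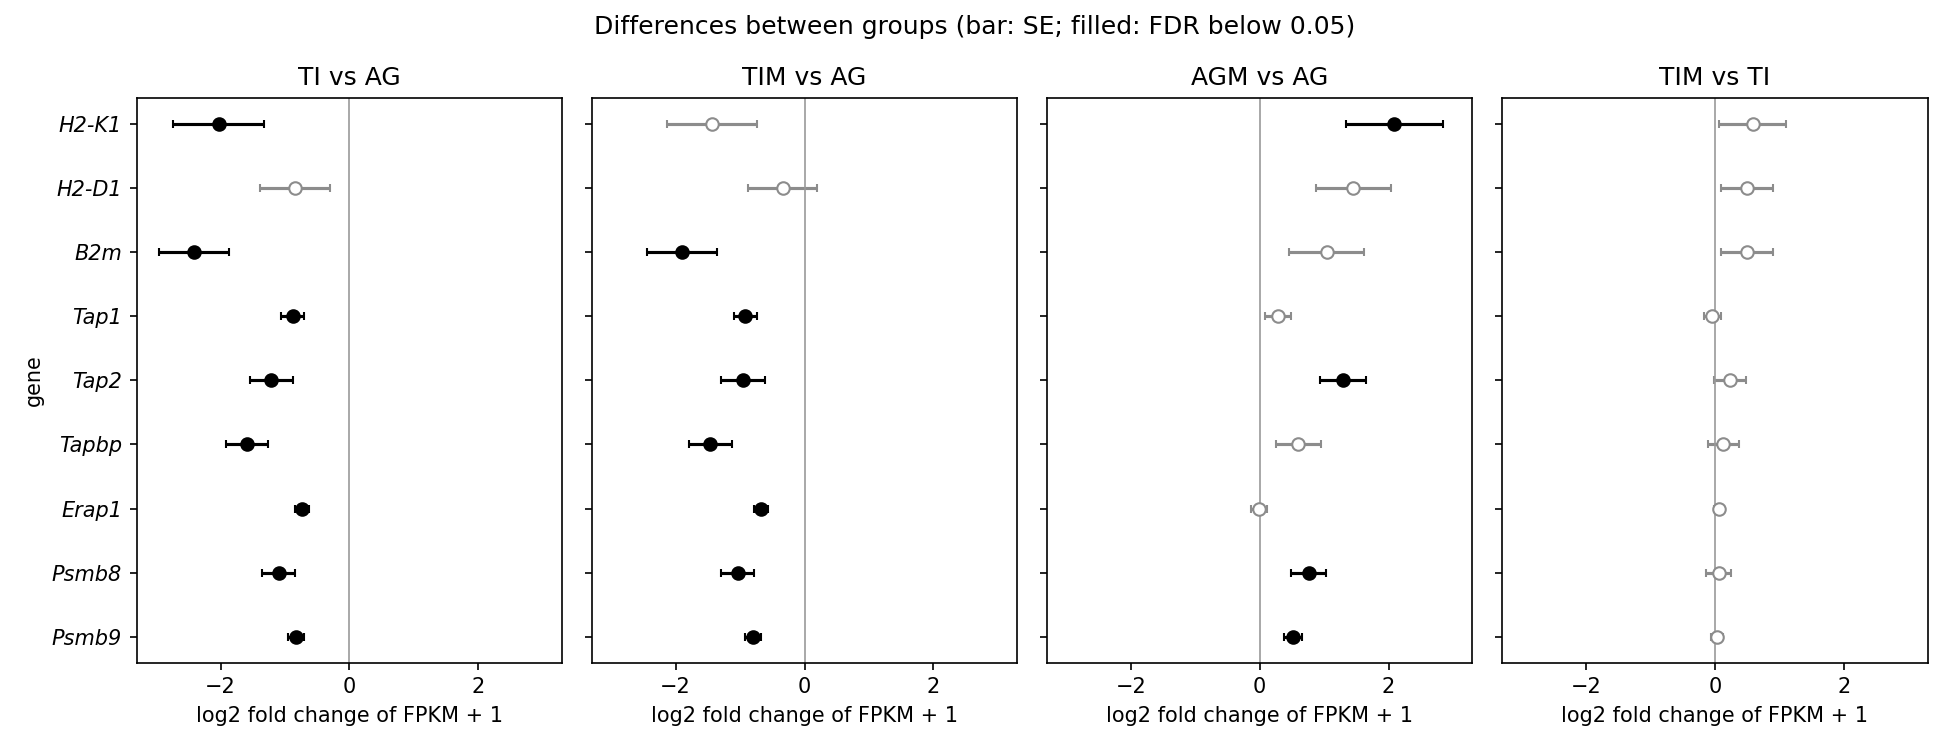
Log2 fold change of FPKM + 1 with its SE for the 9 tested members in 4 comparisons, with filled points where the limma FDR was below 0.05. Tumors lie left of 0 against AG, with H2-D1 and, in TIM, H2-K1 open, AGM lies right of 0 for H2-K1, Tap2, Psmb8 and Psmb9, and no member is filled in TIM vs TI. Tap1, Erap1 and Psmb9 entered the test through glands, so their filled points in tumors against AG are not read as a result.

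AGM glands were compared with AG to ask how these genes stood in MYCN glands without a tumor. H2-K1 rose to 128 ± 32.1 from 28.5 ± 3.04 FPKM (SD, n = 5 and 3), with a log2 fold change of 2.09 ± 0.75 (SE; limma FDR 0.041). Tap2 rose by 1.29 ± 0.36 (SE; limma FDR 0.0108), Psmb8 by 0.76 ± 0.27 (SE; limma FDR 0.0397) and Psmb9 by 0.52 ± 0.14 (SE; limma FDR 0.00739). These 4 of 9 calls stand beside 14.6% of all tested genes called higher (28.6% in either direction). H2-D1 and B2m had values of 1.45 (limma FDR 0.0663) and 1.04 (limma FDR 0.19) and did not pass, although for 8 of 10 members all AGM libraries lay above all AG libraries, as did those of 29.4% of all tested genes.

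The AGM calls depend on the scaling and on libraries. After the FPKM were rescaled without the 126 highest genes, or with limma-voom on recovered reads, 0 of 9 members were called, the median of all genes moved by -0.41 and -0.50, and Tap1, at 0.29 before, was at -0.01 in both. Relative to that median the rescaled value was 2.07 for H2-K1, 1.49 for Tap2, 0.92 for Psmb8 and 0.76 for Psmb9. Libraries 4 and 5, which carry the hepatocyte genes, were also the highest AGM libraries for H2-K1, H2-D1 and B2m. Without them 0 of 8 tested members were called, with H2-K1 at 1.86 (limma FDR 0.159) and Tap2 at 1.24 (limma FDR 0.0506). In AGM libraries 1 to 3 alone, H2-K1 was at 113, 90.4 and 114 FPKM and Tap2 at 7.83, 6.52 and 7.56 FPKM, all above AG. Cortex and adipocyte marker sums also differed between AGM and AG, as given for the groups, and their part in these values was not tested.

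Against AGM, the 6 members that reached 1 FPKM in 3 or more tumors were all lower in TIM, as were 23.1% of the 8549 genes of that kind, and all lower in TI, as were 26.3%. Over all tested genes, 65.3% were called in TIM vs AGM (33.4% lower) and 72.4% in TI vs AGM (36.2% lower). Of the 6 members, all but H2-D1 lay below AGM without overlap in TIM and in TI. Over all tested genes, with those that passed the filter through glands, the shares were 20.8% and 26.8%. Tap1, Psmb9 and Erap1 in both tumor groups, and Nlrc5 in TIM, also lay below AGM but are not counted. These comparisons share their tumors with those against AG. The log2 fold change of H2-K1 was -3.53 ± 0.59 in TIM (SE; limma FDR 1.96e-05) and -4.12 ± 0.59 in TI (SE; limma FDR 1.97e-06). H2-D1, not called against AG, was at -1.79 in TIM (limma FDR 0.00172) and -2.29 in TI (limma FDR 0.000119).

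A further comparison asked whether tumors with MYCN beside IGF2BP1 (TIM) had another class I level than TI tumors. Most TI mice were homozygous for IGF2BP1 and TIM mice were not. MYCN and the dose of IGF2BP1 therefore cannot be told apart here. None of the 9 tested members was called by limma, 0 had an unadjusted p below 0.05, and limma-voom called 0, whereas 22.9% of all tested genes were called. Ranges of all 10 members overlapped. H2-K1 was at 0.59 ± 0.52 (SE; limma FDR 0.44), H2-D1 at 0.50 ± 0.40 (SE; limma FDR 0.388) and B2m at 0.50 ± 0.40 (SE; limma FDR 0.38). A difference of the size of these SE could not have been detected, and the other 6 values lay between -0.04 and 0.24.

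Tumors of 1 group differed widely, and the members went up and down together. TI library 6 had the highest value of its group in 10 of 10 members, with H2-K1 at 51.0 FPKM and the next TI tumor at 14.9. TIM library 5 was the highest and TIM library 1 the second of their group in 10 of 10 members, with H2-K1 at 45.3 and 27.7 FPKM. The 10 members summed to 219 FPKM in TI library 6, 290 in TIM library 5 and 155 in TIM library 1, against group medians of 43.7 and 51.0 FPKM and 183 to 217 FPKM in AG. Cortex markers summed to 10.1 FPKM in TI library 6, 9.28 in TIM library 5 and 2.64 in TIM library 1, the highest of their groups but far from the 645 to 667 FPKM of AG.

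Adipocyte markers summed to 51.0 FPKM in TIM library 5 and 14.3 in TIM library 1, the highest of TIM, and to 1.4 in TI library 6. Chga, the granule protein chromogranin A, was at 926 FPKM in TI library 6, where the next TI tumor had 175, and at 1266 in TIM library 5 but 144 in TIM library 1. C1qa, a macrophage complement gene, was at 11.7, 23.9 and 24.2 FPKM in these 3 tumors, within the range of 4.39 to 21.8 of the other TI and 10.9 to 22.7 of the other TIM tumors only for TI library 6. The part of such tissue or cells in the higher values was not tested. The 3 libraries were picked for their high values of these same members, so values without them describe the other tumors and test nothing. Without them the log2 fold change of H2-D1 was -1.13 in TI vs AG and -0.80 in TIM vs AG, and that of H2-K1 was -2.02 in TIM vs AG.

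**Figure D3:**
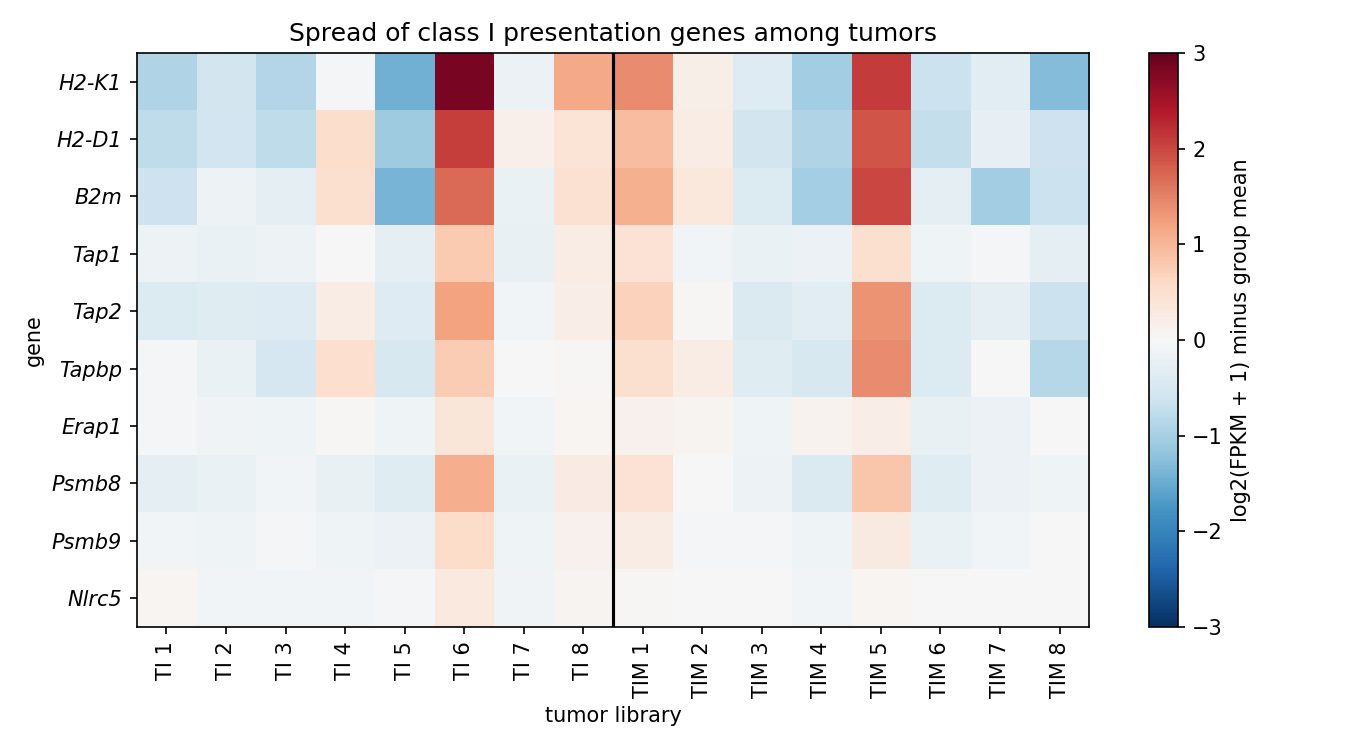
Log2(FPKM + 1) minus the group mean (colour) for the 10 members in the 16 tumors, with the groups parted by a line. Columns of 1 colour run through TI 6, TIM 1 and TIM 5, while TI 5 is below its group mean for all 10 members.

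The other proteins of the pathway did not all follow. As for the members, lists are counted over genes that reached 1 FPKM in 3 or more tumors, of which 20.9% were lower in TI vs AG and 22.3% in TIM vs AG. Of 9 such genes for other class I heavy chains and class I-like proteins, 5 were lower in each of these comparisons, and none was higher. Cd1d1, which presents lipids, fell from 43.1 ± 2.75 FPKM in AG to 1.32 ± 0.631 in TI and 0.711 ± 0.262 in TIM (limma FDR 7.18e-15 and 1.29e-15), and Fcgrt, the neonatal Fc receptor, fell from 12.5 to 1.64 and 3.28 FPKM (limma FDR 2.43e-05 and 0.000323). In AGM vs AG, 4 of 11 tested were higher, led by Mr1, which presents vitamin B metabolites (0.83, limma FDR 2.36e-05), and H2-Q10 (3.4, limma FDR 0.000821), and 1, Cd1d1, was lower. Beside them, 14.6% of all tested genes were called higher and 28.6% in either direction. Values of this list with other scaling are not given here. H2-Q10 is known as a secreted liver class I protein, and it was at 64.1 and 86.7 FPKM in AGM libraries 4 and 5 and at 1.90 to 6.82 in the other AGM glands.

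Among 6 general chaperones and peptidases of loading, 2 were lower in TI vs AG and 1 in TIM vs AG, which is near the share of all such genes. Calr, the chaperone calreticulin, was at 40.5 ± 2.11 FPKM in AG, 38.1 ± 14.9 in TI and 46.0 ± 8.77 in TIM, and neither difference passed (limma FDR 0.611 and 0.589). Pdia3, the disulfide isomerase of the loading complex, was lower in TI (-0.68, limma FDR 0.0221) and at -0.34 in TIM (limma FDR 0.242). The peptidase Ide was lower in both tumor groups (-1.13 and -1.22, limma FDR 2.54e-07 and 7.3e-08). Lnpep, which passed the filter through glands, was at 1.74 ± 0.119 FPKM in AG, 0.798 ± 0.361 in TI and 0.529 ± 0.170 in TIM. Canx, Npepps and Tapbpl were not called against AG in either tumor group.

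The remaining inducible proteasome parts Psmb10, Psme1 and Psme2 were all lower in both tumor groups than in AG. Psmb10 was at 5.76 ± 0.367 FPKM in AG, 2.13 ± 0.698 in TI and 2.76 ± 1.60 in TIM (limma FDR 0.000449 and 0.00284). Psme1 and Psme2, which form the PA28 cap, were at -0.92 and -1.28 in TI (limma FDR 0.000733 and 0.000422) and at -0.99 and -1.28 in TIM (limma FDR 0.00039 and 0.000417). Of the 5 standard or shared subunits, 1 was lower in each comparison, near the share of all such genes. It was Psmb5 (44.3 ± 0.77 FPKM in AG, 21.8 ± 4.40 in TI and 29.7 ± 6.91 in TIM, limma FDR 0.000104 and 0.0117), and Psmb6, Psmb7, Psma1 and Psmb4 were not called against AG.

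Each inducible catalytic subunit was then divided by the standard subunit whose place it takes. These ratios were chosen after values were seen. The ratio of Psmb9 to Psmb6 had a median of 0.0534 in AG, 0.13 in AGM glands, 0.00455 in TI and 0.00895 in TIM, and was lower in both tumor groups than in AG without overlap (exact permutation test, adjusted p = 0.0115 for each). Psmb9 reached 1 FPKM in no tumor, so this ratio rests on low tumor values and is no separate support for a lower Psmb9. The ratio of Psmb10 to Psmb7 was 0.469 in AG, 0.88 in AGM glands, 0.159 in TI and 0.181 in TIM, lower in TI (exact permutation test, adjusted p = 0.0115) and not called in TIM (exact permutation test, adjusted p = 0.145). The ratio of Psmb8 to Psmb5 was 0.0525 in AG, 0.098 in AGM glands, 0.0141 in TI and 0.0143 in TIM, and missed the threshold against AG in TI (exact permutation test, adjusted p = 0.13) and in TIM (exact permutation test, adjusted p = 0.0889). Unadjusted, the exact permutation p of Psmb8 to Psmb5 was 0.103 in TI and 0.0667 in TIM. It was 0.0167 in TI without library 6, 0.0417 without library 8, and in TIM 0.0333 without library 1 and 0.025 without library 5. For Psmb10 to Psmb7 in TIM the unadjusted exact p was 0.121, and 0.00833 without library 5. The libraries left out had the highest ratios of their group. These values show that the result hangs on single tumors and test nothing. All 3 ratios were higher in AGM than in AG without overlap (exact permutation test, adjusted p = 0.0252 for each). A ratio within a library does not depend on its scaling. It can still differ by run or batch correction, and run cannot be told apart from group in AGM vs AG. Without AGM libraries 4 and 5 the groups still did not overlap, but 3 against 3 libraries cannot go below p = 0.1 in an exact test.

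**Figure D4:**
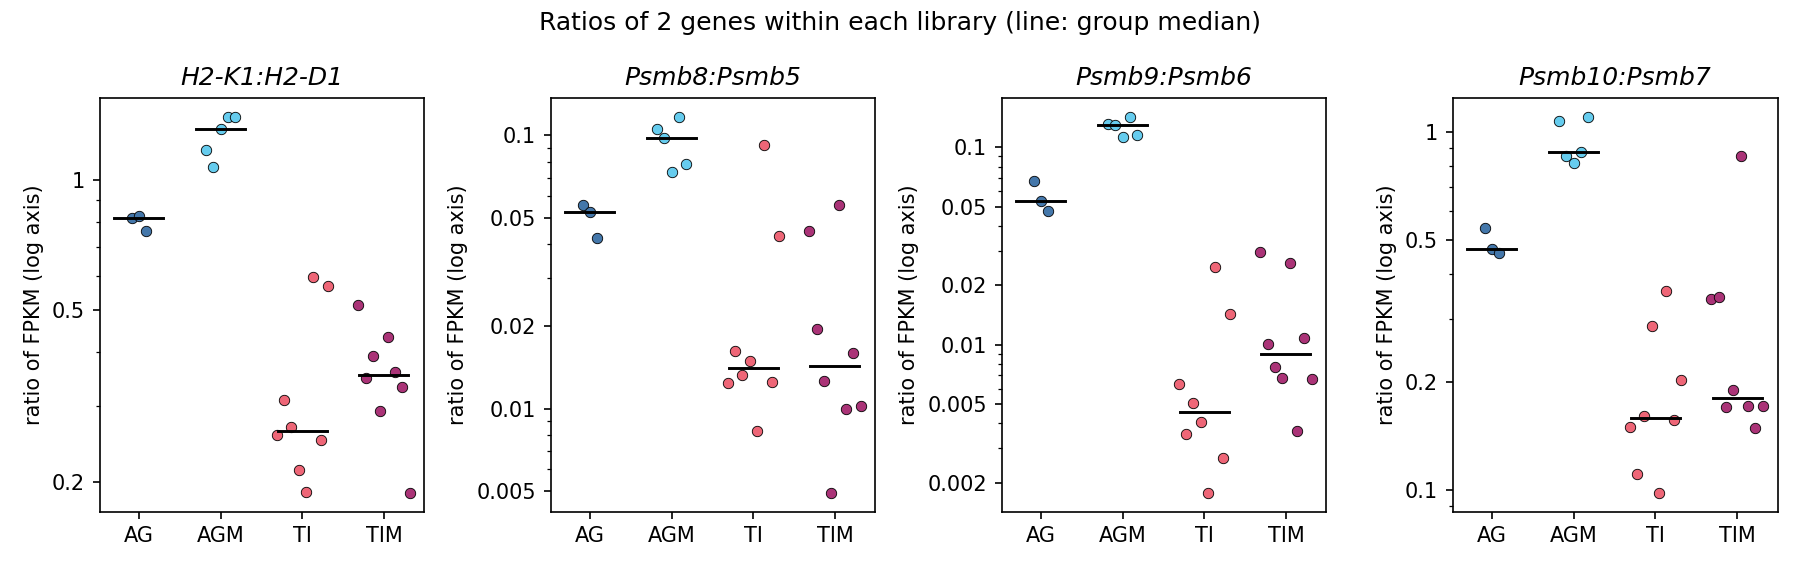
Ratios of FPKM of 2 genes within each library (log axis) by group, with the group median as a line. AGM lies above AG in all 4 panels, and H2-K1:H2-D1 and Psmb9:Psmb6 lie below AG in every tumor.

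Interferon genes are known to share control with class I genes and were counted in the same way. Of 14 tested interferon-stimulated genes outside the pathway, 4 reached 1 FPKM in 3 or more tumors, and 3 of these (Bst2, Igtp and Isg15) were lower in TI vs AG and in TIM vs AG. Bst2, or tetherin, was at 24.9 ± 2.74 FPKM in AG, 2.83 ± 1.1 in TI and 3.74 ± 3.53 in TIM (limma FDR 3.87e-06 and 6.1e-06). The other genes passed the filter through glands and are given by level only. Gbp2, a GTPase induced by interferon gamma, was at 3.71 ± 0.301 FPKM in AG, 0.257 ± 0.103 in TI and 0.268 ± 0.246 in TIM, and Gbp3 was at 1.65, 0.116 and 0.106 FPKM. In AGM vs AG the list moved both ways, 4 higher and 3 lower, with Ifit1 (0.82, limma FDR 0.000874) and Usp18 (0.57, limma FDR 0.00478) higher and Gbp3 (-0.71, limma FDR 1.38e-05) and Ifit3 (-0.94, limma FDR 0.00123) lower.

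Of 8 genes for interferon receptors, kinases and STAT and IRF factors that reached 1 FPKM in 3 or more tumors, 5 were lower in TI vs AG and 6 in TIM vs AG, and 1, the receptor chain Ifngr2, was higher in TIM (0.77, limma FDR 0.00798). Stat2, a factor of type I interferon signalling, fell by 0.78 in TI (limma FDR 2.47e-06) and by 1.33 in TIM (limma FDR 5.6e-10). Among tumors, Stat2 was lower in TIM than in TI (-0.55, limma FDR 9.85e-05) and Ifnar2 was higher (0.43, limma FDR 0.00956).

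Of 5 factors of class I promoters that reached 1 FPKM in 3 or more tumors, 1 was lower in TI vs AG and 2 in TIM vs AG, counts too small to set against the share of all such genes. Rela, a subunit of NF-kB, was lower in both tumor groups (-1.07 and -1.1, limma FDR 7.75e-05 and 5.81e-05). Nfyb, a subunit of NF-Y, and Rfxap, a subunit of RFX, were higher in TI (0.55 and 0.40, limma FDR 0.000865 and 0.00806). Nfkb1, which passed the filter through glands, was at 1.14 FPKM in AG, 0.454 in TI and 0.362 in TIM. Of 15 genes of the MHC region outside antigen presentation, none was lower and 5 were higher in TI vs AG and 3 in TIM vs AG, beside 24.6% and 22.5% of all tested genes. All 15 reached 1 FPKM in 3 or more tumors. The shares also hold genes that passed the filter through glands, so they may be too low for this list. Among them was the RNA helicase Ddx39b, at 10.2 ± 0.361 FPKM in AG, 29.1 ± 4.96 in TI and 21.9 ± 5.15 in TIM (limma FDR 3.44e-07 and 3.88e-05).

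Markers of immune cells differed between the groups beside these results. Of 11 tested macrophage and leukocyte markers, 5 were lower in TI vs AG and 6 in TIM vs AG, led by the class II genes, with H2-Aa at 8.30 ± 1.80 FPKM in AG, 0.748 ± 0.511 in TI and 1.30 ± 1.48 in TIM (limma FDR 3.52e-06 and 1.46e-05). The macrophage genes C1qa, C1qb, C1qc, Lyz2 and Cd68 were not called in either comparison, with log2 fold changes from -0.92 to 0.31 for TI and from 0.17 to 0.42 for TIM. The whole list of 13, in which the class II chaperone Cd74 alone had a mean of 53.6 FPKM in AG, had a sum of 120 to 196 FPKM in AG and 195 to 309 in AGM, of 27.4 to 110 in TI tumors and of 52.6 to 151 in TIM tumors, and the 15 T, NK and B cell markers one of 2.93 to 5.17 FPKM in AG, at most 11 in AGM glands, 0.835 in TI and 0.771 in TIM. NK cell markers of that list differed in direction: Ncr1 was at 0.0325 ± 0.0138 FPKM in AG and 5.16 ± 2.04 in AGM, whereas Nkg7 was at 1.18 ± 0.199 in AG and 0.359 ± 0.0739 in AGM. Cd79a, a B cell gene, was at 1.26 ± 0.530 FPKM in AG and at most 0.219 in any tumor. Of 4 endothelial markers that reached 1 FPKM in 3 or more tumors, 2 were lower in TI vs AG and 4 in TIM vs AG, with Tie1 at -1.15 and -1.2 (limma FDR 0.00572 and 0.00435). The part of fewer immune, endothelial, cortex or adipose cells in the lower class I values of tumors was not tested.

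**Figure D5:**
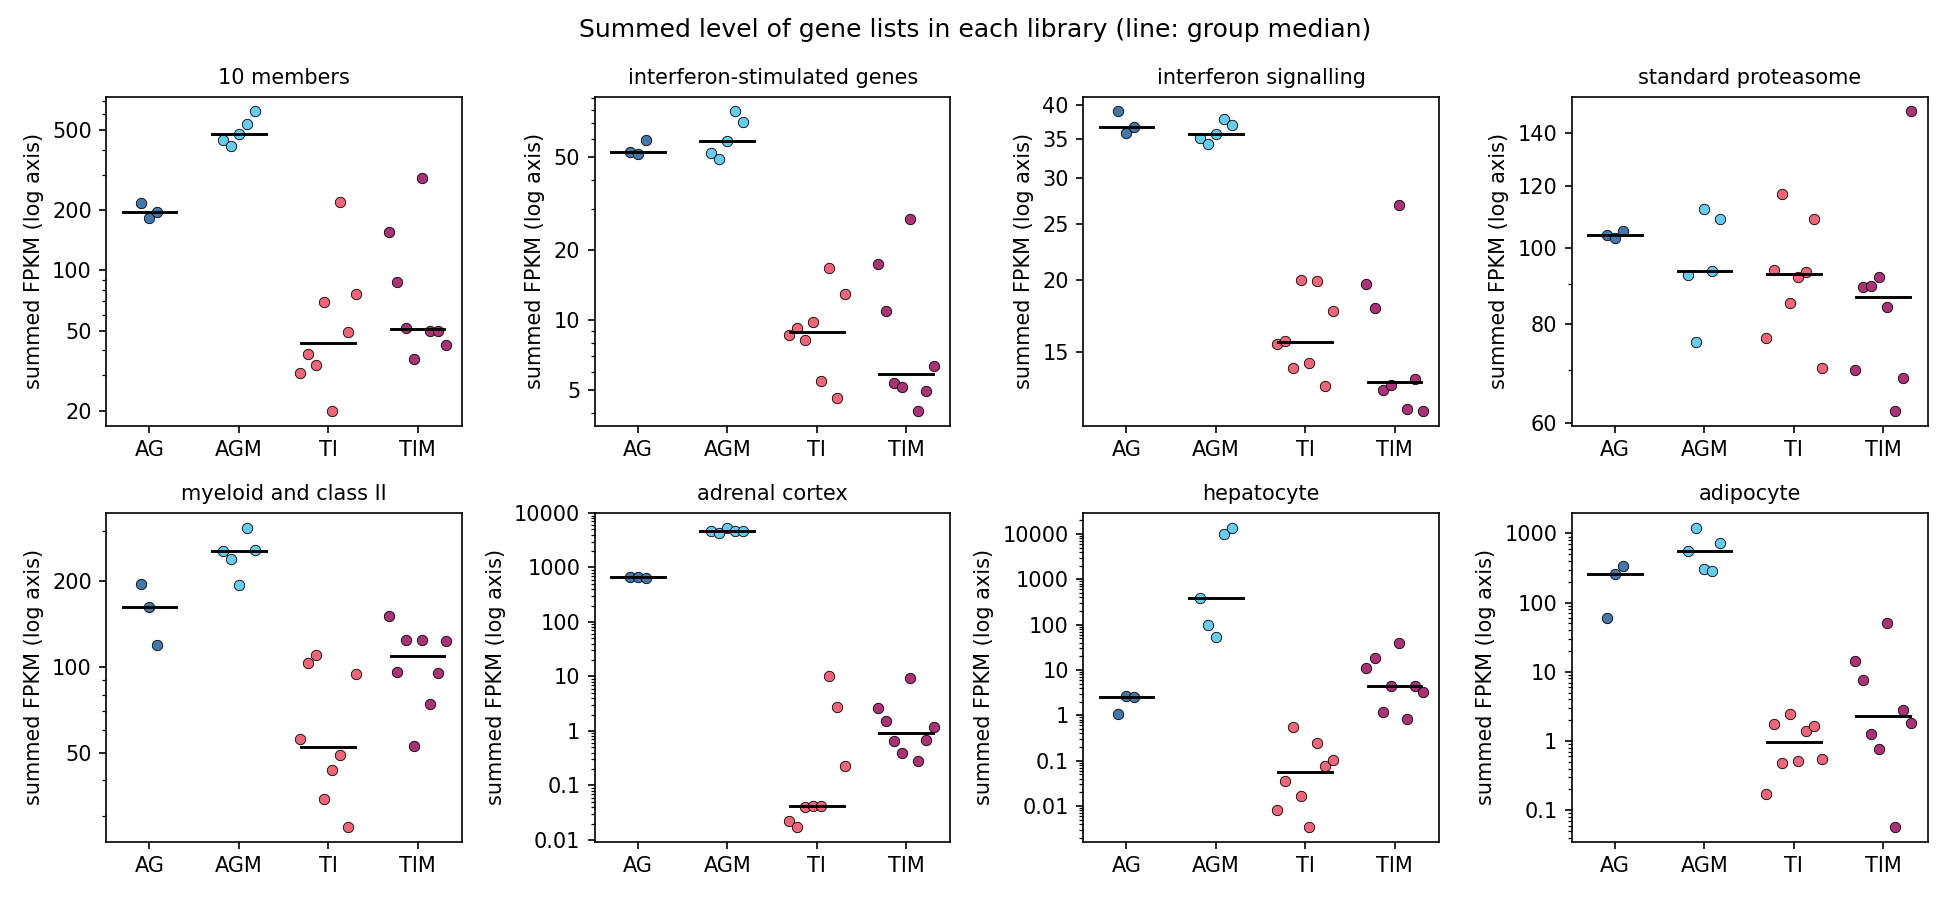
Summed FPKM of 8 gene lists in each library (log axis), by group, with the group median as a line. Interferon lists are lower in all tumors than in all glands, the standard proteasome list overlaps between groups, and hepatocyte genes reach 9956 and 13685 FPKM in AGM libraries 4 and 5.

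The tested genes most like the mean of the 9 tested members were named as a description, by Pearson's r over 24 libraries that share their groups and scaling. They were Cd82, a tetraspanin (r = 0.99), C1ra, a complement protease (0.986), Hfe, a class I-like regulator of iron (0.983), Btd, a biotinidase (0.98), and Lgals3bp, a secreted galectin ligand (0.976). Cd82 had means of 3.57 FPKM in AG, 9.02 in AGM glands, 0.833 in TI and 0.931 in TIM. After group means were removed, the closest were Cd82 (0.983), H2-Q7 (0.972), C1ra (0.971), H2-Q4 (0.97) and H2-Q6 (0.966), so 3 of these 5 are class I genes next to H2-D1 on chromosome 17, with which reads can be shared.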

How the data were processed

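Poly(A)-selected, strand-specific libraries of frozen mouse tissue were sequenced by the authors. According to the study and its processing notes, the authors trimmed reads with cutadapt 2.8, aligned them with HISAT2 2.1.0 to mm39, handled them with SAMtools 1.10, counted them with featureCounts 2.0.0, corrected for batch with ComBat-seq and TMM-normalized in edgeR 3.40. The annotation and the strand setting of the counting are not given in the sources used here. The deposited values are FPKM made by the authors, with gene length, and the authors' own fold changes and p-values in the same table were not used.

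The FPKM times gene length gave whole reads per gene, as they stood after the correction, for 100.0% of values in each library (tolerance 0.01). Intervals from reads would cover counting error only. Symbols were restored for 153 genes, and 21687 genes were found in GENCODE M39. limma 3.58.1 (lmFit, eBayes with trend; R 4.3.3) was run on log2(FPKM + 1), a scale that understates changes of low genes, over all 24 libraries and 6 contrasts with no covariate, with Benjamini-Hochberg adjustment over the genes of a contrast. Calls in tumors were counted over genes that reached 1 FPKM in at least 3 tumors, a count added after values were seen, since the filter can pass a gene through glands alone. Nlrc5 and the ratios were tested by exact two-sided permutation over libraries (SciPy 1.17.1, Python 3.11.15). On simulated data of 10171 genes with 200 changed by 2 on the log2 scale, the fit recovered 95% of the changed genes for TI vs AG, and 5.94% of its calls were false. Over the 6 contrasts, recovery was 95% to 98%, and false calls were 3.48% (TIM vs AG) to 8.84% (TIM vs TI). In the data many more genes were called and many member differences were below 2, so these shares are not the power here.

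Members and gene lists were chosen with earlier results of these data known, and the ratios and the adipocyte and hepatocyte lists were added after values were seen. Named genes are the 10 members, the 2 smallest FDR per direction of a list or all genes of a list of up to 7, the 5 most alike genes, and genes whose values bear on a result, which were chosen after their values were seen (Alb, Chga, C1qa, Cd3e, Cd8a, Cd4, Nkg7, Bst2, Tie1, Lyz2, Cd68, C1qb, C1qc, Cd74, Calr, H2-Q10, Stat2, Ifnar2). H2-T10 and Mx1 of the lists were not analysed here, and the values of 1 listed gene are not reported here. Groups were taken from column names. Nothing ties libraries of a group to separate litters or animals, so p-values measure the spread between these samples. Alternatives were another pseudocount, filters, scaling, the groups in the fit, limma-voom and leaving out libraries.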

Additional observations from a re-analysis of the deposited data

Results flagged for a closer look

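For each member, the gap of the highest or lowest library to its neighbour was divided by the range of the group on the log2(FPKM + 1) scale, in 30 groups of 5 or 8 libraries. Chance alone passes the 95% limit of Dixon's test in about 1 of 20 groups, and 6 of 30 passed here. In all 6 the library was TI library 6, the highest of its group. The gap was 0.533 of the range for Tap1 (1.23 FPKM, next 0.507), 0.61 for Tap2 (2.53, next 0.771) and 0.578 for Psmb8 (2.19, next 0.783). It was 0.591 for Psmb9 (0.741, next 0.295), 0.552 for Nlrc5 (0.386, next 0.193) and 0.612 for Erap1 (0.532, next 0.241). The 6 genes were read from the same library and are not independent.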

How the results depend on the processing

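The counts here are over all 9 tested members (8 lower in TI vs AG, 7 in TIM vs AG, 9 against AGM), with those that passed the filter through glands, which favours lower tumor values. Of all tested genes, 27.7%, 28.5%, 33.4% (TIM vs AGM) and 36.2% (TI vs AGM) were lower, and 14.6% were higher in AGM vs AG. Shares under the other settings are not given, so the counts only show how calls move with the setting. Requiring at least 1 FPKM in every library left 4 members in the test, of which 3 were called in TI vs AG, 2 in TIM vs AG, 1 in AGM vs AG, and 4 in TIM vs AGM and 4 in TI vs AGM. Other settings kept the tumor counts within 1.5 times. In AGM vs AG the count of 4 members fell to 0 with a pseudocount of 0.1, rescaled FPKM, limma-voom or without AGM libraries 4 and 5 (chosen after seeing the data), to 2 with no filter, and rose to 8 with only those groups in the fit or without TI library 6 and TIM libraries 1 and 5 (chosen after seeing the data). Leaving out 1 library at a time gave 6 to 9 calls in TI vs AG (6 without AG library 1), 5 to 8 in TIM vs AG (5 without AG library 1), 2 to 5 in AGM vs AG (2 without any 1 of the AG libraries or of AGM libraries 1, 3, 4 and 5), 0 in TIM vs TI, and 8 to 9 in TIM vs AGM and TI vs AGM. In TI vs AG, H2-K1 was lost without AG library 1 (limma FDR 0.0644) or 2 (limma FDR 0.0512), and H2-D1 passed without TI library 6 (limma FDR 0.0412). In TIM vs AG, H2-K1 passed without TI library 6 (limma FDR 0.036) or TIM library 5 (limma FDR 0.0279), and Tap2 was lost with only those groups in the fit (limma FDR 0.0585). Nlrc5 in TI vs AG was lost without AG library 1 (exact p = 0.0667) and in TI vs AGM without AGM library 1 (exact p = 0.0505), without AGM libraries 4 and 5 (exact p = 0.109) or after rescaling (exact p = 0.337), while in AGM vs AG it was lower after rescaling (exact p = 0.0179) or without AG library 3 (exact p = 0.0476). Directions turned for the following values. Tap1 in AGM vs AG was -0.01 after rescaling and -0.01 with limma-voom, Erap1 in AGM vs AG ranged over -0.03 to 0.05 with 1 library left out, and in TIM vs TI the ranges were -0.1 to 0.08 for Tap1, -0.07 to 0.25 for Tapbp (-0.07 without TI library 6 and TIM libraries 1 and 5), -0.06 to 0.22 for Psmb8, -0.01 to 0.11 for Psmb9 and -0.472 to 0.108 for the log2 ratio of Psmb8 to Psmb5. The log2 ratio of Psmb9 to Psmb6 passed in TIM vs TI without TI library 6 (1.2, unadjusted exact p = 0.0371). The causes were not tested. No paired analysis was possible because the table columns carry no sample numbers.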
